A study of Mus musculus with 15 samples.

Results

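The 8 genes described here handle thyroid hormone inside and at the surface of cells: the uptake genes Slc16a10, Slco1c1, Slc7a5, Slc7a8 and Slc3a2, the binding protein gene Crym, and the deiodinase genes Dio2 and Dio3. They were chosen by name for their function, and all 8 have a row among the 55341 genes of the PTU and PTU+TH tables and among the 48321 genes of the Ctrl and Mut tables. RNA was read from nuclei sorted out of the cortex of adult mice, 1 cortex per library, in 15 libraries of 4 groups. All mice carried PvCre and ROSA-tomato-lox, so that the Pv gene's Cre marks parvalbumin neurons, the fast-firing inhibitory neurons of the cortex. PTU+TH mice (n = 4, numbered 1 to 4) and PTU mice (n = 3, numbered 5 to 7) were Thra+/+ and ate pellets with PTU, a blocker of hormone synthesis, for 2 weeks. PTU+TH mice in addition received thyroid hormone by intraperitoneal injection 24 h before dissection; the labels do not name the hormone's form or dose. Mut mice (n = 4) were untreated ThraAMI/+ animals, which make the dominant negative receptor TRalpha1L400R once Cre acts, so the mutation is limited to cells that express or once expressed the driver. Ctrl mice (n = 4) were their untreated Thra+/+ littermates. Sex and exact age are not labelled.

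Thyroid hormone crosses membranes through carrier proteins. The thyroid makes mostly the prohormone T4, and type 2 deiodinase, the product of Dio2, turns it into the active T3, which in brain is known as a task of astrocytes and tanycytes. Type 3 deiodinase, the product of Dio3, inactivates both forms and in brain is chiefly a neuronal enzyme, so a neuron's supply depends on uptake from neighbours, on inactivation and on binding in the cytosol.

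Values are CPM, a gene's counts scaled to the total of its table. Tests used edgeR's quasi-likelihood test over all genes tested, with Benjamini-Hochberg adjustment, and a gene was called at an adjusted p under 0.05. Depth was 12957838 to 19141683 counts in the PTU+TH and PTU libraries and 22333742 to 32571175 in the Mut and Ctrl libraries. The labels were checked on the hormone response: Hr, a direct target of the hormone receptor, had 46.3, 44.9, 43.1 and 49.5 CPM in PTU+TH mice, against 2.52, 5.94 and 3.29 CPM in PTU mice. Klf9, another target, was higher in PTU+TH than in PTU mice without overlap but was not called (log2 fold change 0.99, edgeR adjusted p = 0.0556). In Mut against Ctrl Hr had a log2 fold change of -3.06 without overlap and was called (edgeR adjusted p = 0.0259). Its level was 0.461 to 4.07 CPM in Mut and 12.5 to 15.4 CPM in Ctrl mice. Klf9 had -0.59 in that comparison with groups that overlap, and was not called (edgeR adjusted p = 0.395). Thra, the gene of the mutated receptor, had 29.0, 29.5, 37.4 and 31.6 CPM in Mut mice, against 57.8, 57.8, 48.2 and 62.8 CPM in Ctrl mice (log2 fold change -0.84, adjusted p = 0.028 by edgeR). The PTU+TH and PTU tables form 1 set and the Mut and Ctrl tables another, with different gene lists, so in any comparison with Ctrl mice across them the diet and the set cannot be told apart. Libraries also split by Y-linked counts, which were present in PTU+TH 3 and 4, PTU 6 and 7, Mut 1, 2 and 3 and Ctrl 2. In the PTU+TH and PTU set, genes longer than 100 kb took 24.9% to 28.4% of counts in the libraries with Y-linked counts and 34.1% to 40.7% in those without.

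Of the 8 genes, 3 were well counted in these nuclei. Slc3a2 and Slc7a8 had 98.7 CPM or more in all 15 libraries and Slc16a10 lay between 7.79 and 44.9 CPM. Slco1c1, Crym and Dio2 stayed under 3 CPM, with Dio2 at no more than 26 counts in any library. Dio3 was counted in 3 libraries, all from PTU+TH mice, with 3, 2 and 3 counts. Slc7a5 had no count in any library.

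**Figure D1:**
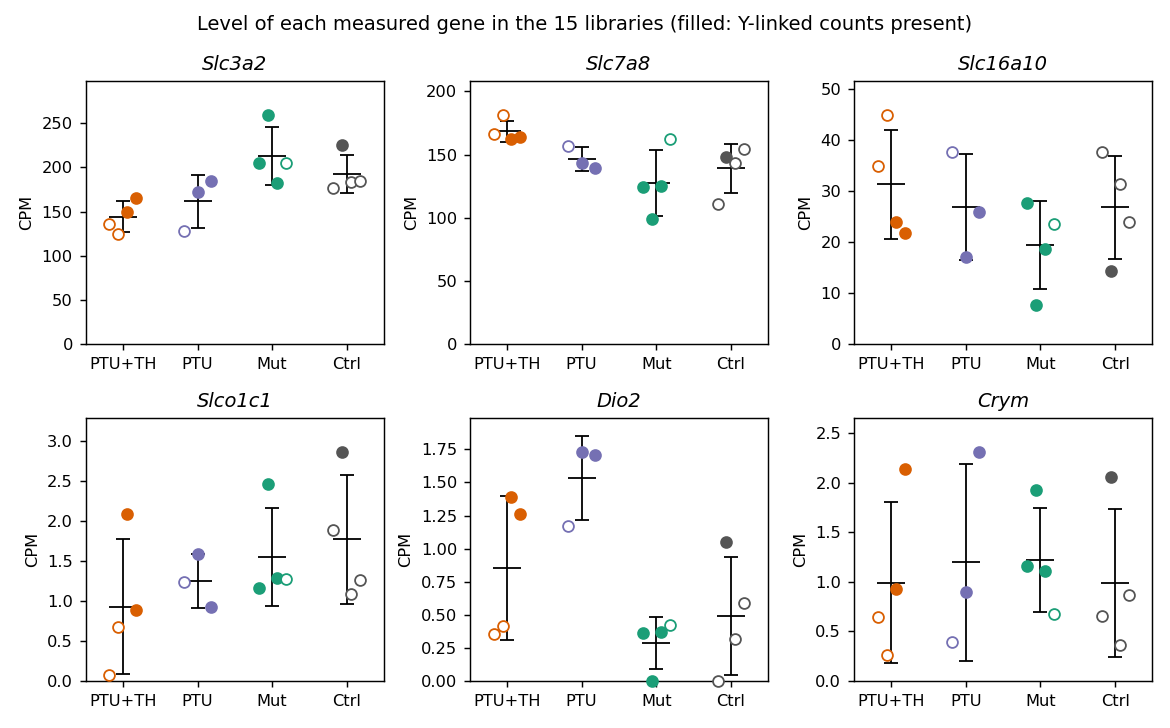
CPM of the 6 genes with enough counts to plot, 1 point per library, with the group mean (horizontal bar) and SD (whiskers), filled where Y-linked counts were present. Slc3a2 is lower in every PTU+TH library (125 to 166 CPM) than in every Ctrl library (177 to 225 CPM), and Dio2 is higher in every PTU library (1.17 to 1.73 CPM) than in every Ctrl library (0 to 1.05 CPM).

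The 0 of Slc7a5, the LAT1 light chain that carries hormone and large neutral amino acids, is no measure of its level. In the GENCODE M21 annotation of GRCm38 its interval (chromosome 8, 121881150 to 121907694, minus strand) lies wholly inside that of Gm20388 (119910841 to 124345722, plus strand), a predicted gene of 4.43 Mb with which it shares 0 exon bases. All 71 protein-coding genes inside Gm20388 were at 0 in all 15 libraries, among them Rpl13, Cox4i1 and Map1lc3b, which most cells express, and Tubb3, a tubulin of neurons. The same held across the genome. In the tables of PTU+TH and PTU mice, 474 of 474 protein-coding genes (100%) inside a gene on the opposite strand were at 0 in every library, and 206 of 206 (100%) inside a gene on the same strand. Among those overlapping no other gene, 3575 of 11721 (30.5%) were at 0. In the Mut and Ctrl tables the counts were 421 of 443, 178 of 188 (94.7%) and 2560 of 11372 (22.5%). These zeros are what counting over whole gene intervals on both strands gives when a read inside 2 genes is assigned to neither, and Slc7a5 was therefore left out of every comparison of levels. The other 7 genes share at most 1.71% of their interval with another gene.

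**Figure D2:**
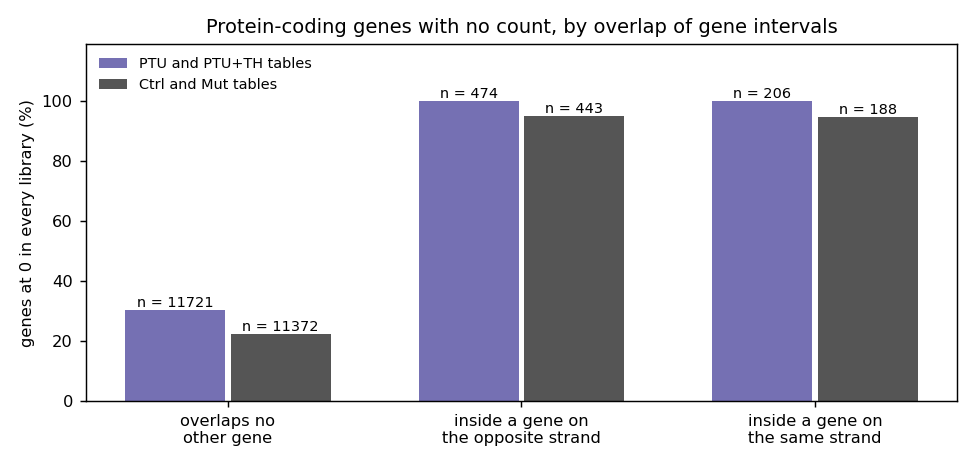
Percentage of protein-coding genes with no count in any library of a set, by how the gene's interval overlaps others, with the number of genes above each bar. Genes inside another gene are at 0 in 94.7% to 100% of cases on either strand, against 22.5% to 30.5% of genes that overlap none.

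The 250 bases upstream of the RefSeq start on GRCm38.p6, read along the gene's own strand, are given for 3 of the genes whose differences are described below. Of the 3, Dio2 was called in no comparison and Dio3 was too low to test. The windows are chr19:8713898-8714147 (minus strand) for Slc3a2, chr12:90739039-90739288 (minus strand) for Dio2 and chr12:110278980-110279229 (plus strand) for Dio3. RefSeq starts differ from the GENCODE intervals used elsewhere here. The Slc3a2 window lies inside that gene's GENCODE interval (8706882 to 8723369). The Dio3 window runs past the start of its interval (110279068), and the Dio2 window does not reach its interval (90724552 to 90738438). Capitals mark a cyclic AMP response element, TGACGTCA.
Slc3a2: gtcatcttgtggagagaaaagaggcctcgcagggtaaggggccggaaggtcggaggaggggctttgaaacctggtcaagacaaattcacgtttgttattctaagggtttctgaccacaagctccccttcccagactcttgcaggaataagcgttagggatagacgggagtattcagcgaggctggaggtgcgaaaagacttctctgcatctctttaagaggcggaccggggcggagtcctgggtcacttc
Dio2: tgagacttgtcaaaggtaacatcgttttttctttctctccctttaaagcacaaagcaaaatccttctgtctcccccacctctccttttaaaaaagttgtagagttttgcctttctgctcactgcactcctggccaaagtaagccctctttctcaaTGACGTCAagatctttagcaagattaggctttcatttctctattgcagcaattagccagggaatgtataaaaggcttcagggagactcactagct
Dio3: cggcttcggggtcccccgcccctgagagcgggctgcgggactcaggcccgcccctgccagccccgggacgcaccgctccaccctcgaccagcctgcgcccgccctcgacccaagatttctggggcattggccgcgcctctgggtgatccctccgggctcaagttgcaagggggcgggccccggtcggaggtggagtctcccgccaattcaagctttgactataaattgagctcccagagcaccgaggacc
The element in Dio2 begins 95 bases before the start, and 1.55% of 32851 promoters of this length hold it. The hormone receptor hexamer AGGTCA, which 14.0% of promoters hold on either strand, and its direct repeat with 4 bases between the copies, held by 0.0152%, had no match in these windows of the 6 genes matched in the RefSeq promoter table used here. That says only that the letters are not in this window.

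Slc3a2 encodes the heavy chain (CD98hc, 4F2hc) that brings several light chains, among them the products of Slc7a5 and Slc7a8, to the cell surface. It had 136, 125, 150 and 166 CPM in PTU+TH mice, 128, 172 and 185 CPM in PTU mice, 205, 259, 183 and 205 CPM in Mut mice and 177, 225, 184 and 185 CPM in Ctrl mice. The PTU+TH libraries all lay below the Ctrl libraries, while PTU overlapped both. Means were 144 ± 17.9, 162 ± 30.0, 213 ± 32.3 and 193 ± 22.1 CPM for PTU+TH, PTU, Mut and Ctrl mice (SD, n = 4, 3, 4 and 4). The gene lies on chromosome 19 (8706882 to 8723369, minus strand) over 16.5 kb.

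Slc7a8, the LAT2 light chain, which in mouse carries hormone and neutral amino acids, had 166, 181, 162 and 164 CPM in PTU+TH mice, 157, 143 and 139 CPM in PTU mice, 124, 98.7, 125 and 162 CPM in Mut mice and 111, 148, 143 and 154 CPM in Ctrl mice. All 4 PTU+TH libraries lay above all 3 PTU and all 4 Ctrl libraries. The gene spans 59.7 kb of chromosome 14 (54722209 to 54781946, minus strand).

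Slc16a10, the aromatic amino acid carrier MCT10 (TAT1) that also moves hormone in both directions, had 35.0, 44.9, 23.9 and 21.8 CPM in PTU+TH mice and 37.7, 17.1 and 25.9 CPM in PTU mice. It had 27.8, 7.79, 18.7 and 23.5 CPM in Mut mice and 37.8, 14.3, 31.4 and 24.0 CPM in Ctrl mice. Every group overlapped every other, and the spread inside groups was wide: the SD was 10.7, 10.3, 8.61 and 10.1 CPM around means of 31.4, 26.9, 19.4 and 26.9 CPM in PTU+TH, PTU, Mut and Ctrl mice (n = 4, 3, 4 and 4). Slc16a10 is the longest of the 8 genes, at 109 kb on chromosome 10 (40033532 to 40142258, minus strand).

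Slco1c1 encodes OATP1C1, the T4 carrier of the blood-brain barrier and of astrocytes. It had 0.0716, 0.679, 2.08 and 0.886 CPM in PTU+TH mice, 1.23, 1.59 and 0.922 CPM in PTU mice, 1.16, 2.46, 1.29 and 1.27 CPM in Mut mice and 1.88, 2.86, 1.08 and 1.26 CPM in Ctrl mice. These levels rest on 1 to 68 counts per library, and the groups overlap. The gene lies on chromosome 6 (141524368 to 141570177, plus strand).

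Crym encodes mu-crystallin, which binds T3 in the cytosol. Its level was 0.644, 0.261, 0.926 and 2.14 CPM in PTU+TH mice, 0.388, 0.898 and 2.31 CPM in PTU mice, 1.16, 1.93, 1.11 and 0.675 CPM in Mut mice and 0.654, 2.06, 0.359 and 0.867 CPM in Ctrl mice. Libraries of 1 group differed more than the group means did, which reached 1.22 CPM in Mut mice at the highest and 0.985 CPM in Ctrl mice at the lowest. Crym lies on chromosome 7 (120186380 to 120202111, minus strand).

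Dio2 had 0.358, 0.418, 1.39 and 1.26 CPM in PTU+TH mice, 1.17, 1.73 and 1.71 CPM in PTU mice, 0.359, 0, 0.368 and 0.422 CPM in Mut mice and 0, 1.05, 0.319 and 0.591 CPM in Ctrl mice. PTU libraries were above all Mut and all Ctrl libraries, and PTU+TH libraries split into a low pair that overlaps Ctrl and a high pair that overlaps PTU. Means were 0.855 ± 0.543, 1.54 ± 0.321, 0.287 ± 0.194 and 0.49 ± 0.445 CPM in PTU+TH, PTU, Mut and Ctrl mice (SD, n = 4, 3, 4 and 4). The gene lies on chromosome 12 (90724552 to 90738438, minus strand), and 1.71% of its interval is shared with Gm26512, where a read may be assigned to neither.

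Dio3 is a gene of 2.03 kb on the same chromosome (110279068 to 110281097, plus strand). It had 3, 0, 2 and 3 counts in PTU+TH mice and 0 in all PTU, Mut and Ctrl mice. The 8 counts stand among 59604956 in all PTU+TH libraries together, and none was found among 45098225 in PTU, 103677639 in Mut and 98714177 in Ctrl libraries. A floor of 3 counts was set over each other group. The pooled level in PTU+TH mice was 2.02-fold that floor for PTU, 4.64-fold for Mut and 4.42-fold for Ctrl mice. The ratios to Mut and Ctrl mice cross the sets. All of these ratios take the 8 counts as exact, so they are not lower bounds on the difference. They cover neither the counting error of the 8 nor the spread between mice, and reads were amplified without molecular identifiers. At this depth Dio3 in the other groups was not detectable, which does not make it absent. Without the filter on low counts edgeR called Dio3 in PTU+TH against Ctrl (adjusted p = 0.0477) and not in PTU+TH against PTU (adjusted p = 0.851). DESeq2 did not call it in PTU+TH against Ctrl (adjusted p = 0.144).

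Per kb of gene interval, the order in Ctrl mice was Slc3a2 (10.7 to 13.7 CPM per kb), Slc7a8 (1.87 to 2.57), Slc16a10 (0.131 to 0.348), Crym (0.0228 to 0.131), Slco1c1 (0.0235 to 0.0624), Dio2 (0 to 0.0757) and Dio3 at 0. Slc3a2 and Slc7a8 do not overlap their neighbours in that group. Crym at its highest reaches Slc16a10 at its lowest to the digits given, and Crym, Slco1c1 and Dio2 cannot be put in order. Ranks on this scale were taken among the 15810 protein-coding genes with counts in Ctrl mice that share under 50% of their interval with other genes. Of these, Slc3a2 stood above 96.9%, Slc7a8 above 77.0%, Slc16a10 above 40.1%, Crym above 29.7%, Slco1c1 above 26.1% and Dio2 above 25.5%. In PTU mice Dio2 (0.0839 to 0.124 CPM per kb) lay above Slco1c1 (0.0201 to 0.0347) without overlap. Per kb of exon, Slco1c1 (0.341 CPM per kb) comes before Crym (0.29) in Ctrl mice.

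Hormone given to PTU-fed mice changed none of these genes past the test. Of 15288 genes tested in PTU+TH against PTU, 43 (0.281%) were called, and of the 8 genes 6 were tested and 0 were called, with 0 also at an unadjusted p under 0.05, which 7.37% of all genes had, and 0 called by DESeq2. Slc7a8 had a log2 fold change of 0.24 ± 0.14 (SE; 95% interval -0.08 to 0.56; edgeR adjusted p = 0.862). It was the single tested gene of the 6 whose groups do not overlap, as 7.25% of all genes tested did not. Dio2 had -0.84 ± 0.49 (-1.94 to 0.26; edgeR adjusted p = 0.852). Slc3a2 was held to a narrow range, -0.12 ± 0.11 (-0.38 to 0.14), and Slc16a10 to a wide one, 0.27 ± 0.37 (-0.58 to 1.12). For Slco1c1 (-0.42, interval -2.01 to 1.17) and Crym (-0.26, interval -1.87 to 1.34) the interval holds a change of more than 2-fold either way. Dio3 did not pass the filter on low counts in any comparison, and Slc7a5 was not measured. The median log2 fold change of the 6 was -0.19, against -0.003 over all genes tested.

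Among the PTU+TH and PTU libraries, the 4 with Y-linked counts and the 3 without stood apart without overlap in Slc16a10, Slc3a2, Dio2 and Crym. The 2 kinds overlapped in Slc7a8 and in Slco1c1 (0.886 to 2.08 CPM with Y-linked counts and 0.0716 to 1.23 CPM without). What share of all genes stood apart in this way was not counted, so the split cannot be read as particular to these genes. In the libraries with Y-linked counts Slc16a10 lay at 17.1 to 25.9 CPM, Slc7a8 at 139 to 164, Slc3a2 at 150 to 185, Dio2 at 1.26 to 1.73 and Crym at 0.898 to 2.31. In those without, Slc16a10 lay at 35.0 to 44.9 CPM, Slc7a8 at 157 to 181, Slc3a2 at 125 to 136, Dio2 at 0.358 to 1.17 and Crym at 0.261 to 0.644. Within each of the 2 kinds, Slc7a8 was higher in PTU+TH than in PTU mice: 163 against 141 CPM with Y-linked counts and 174 against 157 CPM without. Dio2 was lower in PTU+TH than in PTU mice in both, at 1.32 against 1.72 CPM and at 0.388 against 1.17 CPM. Each of these means rests on 1 or 2 libraries.

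**Figure D3:**
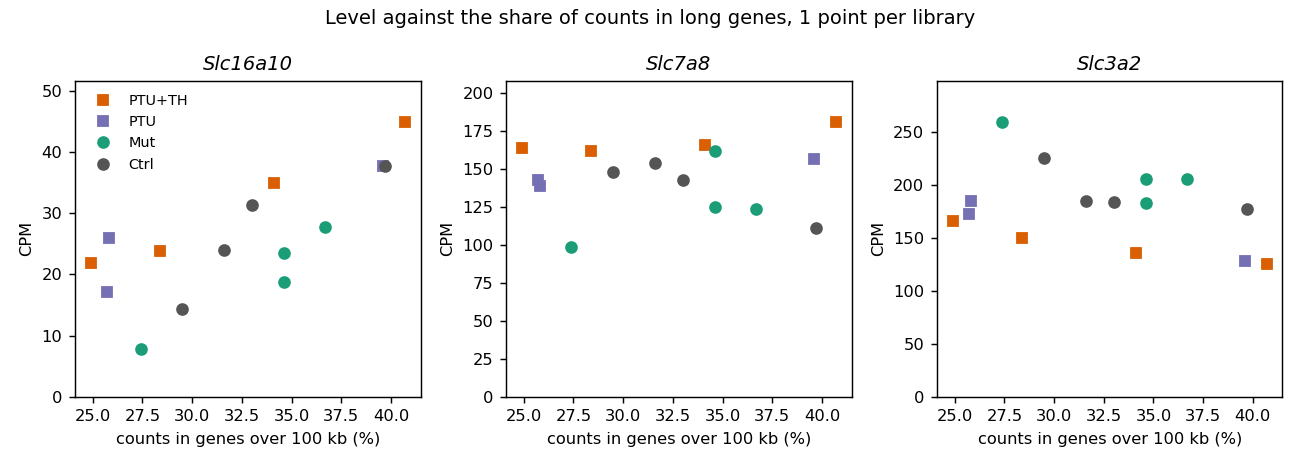
CPM of Slc16a10, Slc7a8 and Slc3a2 (vertical axes) against the share of a library's counts in genes over 100 kb (horizontal axes, percent), 1 point per library; squares are PTU+TH and PTU, circles Mut and Ctrl. Slc16a10 is highest (44.9 CPM) in the PTU+TH library with the highest share (40.7%), and lowest (7.79 CPM) in the Mut library with the lowest share of its set (27.4%).

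Slc16a10 was higher in libraries with a higher share of counts in long genes in both sets, as the plot of levels against that share shows. The part of that share in its group values was not tested. By the lower of 2 Pearson correlations of log2(CPM + 1), 1 over the 7 PTU+TH and PTU libraries and 1 over the 8 Mut and Ctrl libraries, the genes most like it among 10473 were Fam110b (0.99 and 0.96), Dnajc6 (0.95 and 0.96) and Dpp6 (0.95 and 0.96), which span 464, 146 and 910 kb. Nearest to Slc3a2 were Mtch1 (0.96 and 0.97), Bmi1 (0.96 and 0.95) and Zfand2b (0.95 and 0.97), of 15.9, 9.61 and 2.98 kb. Nearest to Slc7a8 were Mical2 (0.93 and 0.93), Ttll3 (0.90 and 0.90) and Epb41l1 (0.92 and 0.89). These values describe libraries that share depth, amplification and long-gene share, and carry no test.

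Mice with the dominant negative receptor likewise showed no called change in these genes. In Mut against Ctrl 59 of 16949 genes (0.348%) were called; 5 of the 8 genes were tested, 0 were called, and 0 had an unadjusted p under 0.05 by edgeR or DESeq2, where 8.74% of all genes did by edgeR. Slc3a2 had a log2 fold change of 0.13 ± 0.12 (SE; 95% interval -0.13 to 0.39; edgeR adjusted p = 0.876) and Slc7a8 -0.13 ± 0.16 (-0.48 to 0.23; adjusted p = 0.926). Slc16a10 had -0.47 ± 0.38 (-1.32 to 0.37; adjusted p = 0.843), with its lowest value in Mut 2. Y-linked counts were present in 3 Mut libraries but only 1 Ctrl library. With them as a covariate Slc16a10 had -0.02 ± 0.44 and Slc7a8 -0.03 ± 0.17. Among libraries with Y-linked counts Slc16a10 averaged 18.1 CPM in Mut mice, against 14.3 CPM in Ctrl 2. Among those without, it had 23.5 CPM in Mut 4, against a mean of 31.1 CPM in Ctrl mice. Slco1c1 had -0.22 (interval -1.13 to 0.69) and Crym 0.29 (interval -0.89 to 1.47). Besides Dio3, Dio2 was too low to test, at 0.287 ± 0.194 CPM in Mut and 0.49 ± 0.445 CPM in Ctrl mice (SD, n = 4 each). None of the 5 had groups that do not overlap, as 5.89% of all genes tested had. Their median was -0.13, against 0.014 over all genes.

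**Figure D4:**
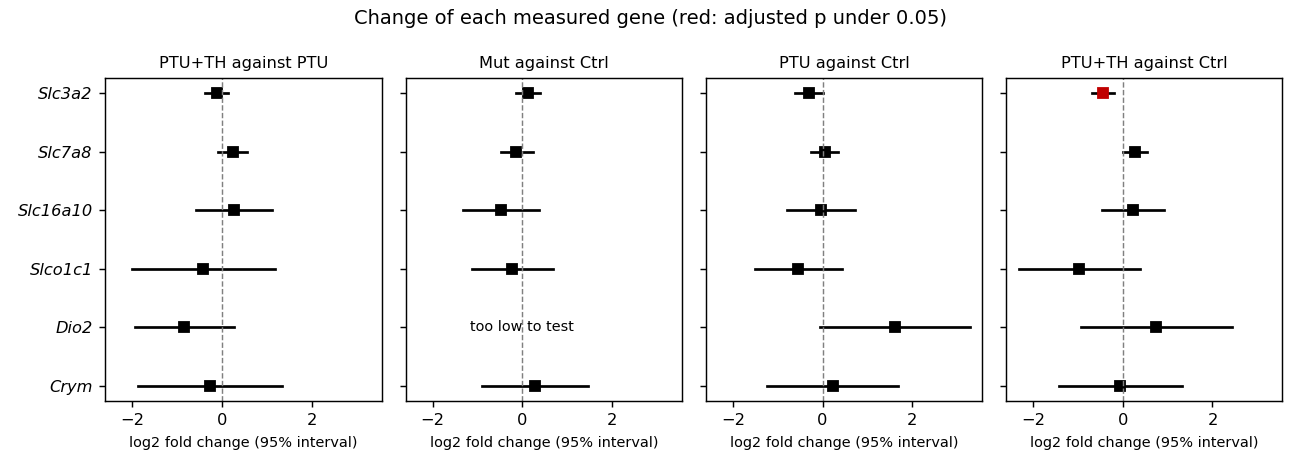
Log2 fold change (squares) with its 95% interval (lines) for the 6 genes that could be tested, in the 4 comparisons; the first group named is over the second. The single red square is Slc3a2 in PTU+TH against Ctrl, at -0.44 (interval -0.68 to -0.20), and Dio2 in Mut against Ctrl was too low to test.

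Against Ctrl mice, across the 2 sets, Slc3a2 was the single called gene: it fell in PTU+TH mice, with a log2 fold change of -0.44 ± 0.11 (SE; 95% interval -0.68 to -0.20; edgeR adjusted p = 0.0137), or 0.737 of the Ctrl level (0.624 to 0.87). That is 1 of 6 tested, beside 17.8% of all 15814 genes called and 13.1% called as lower, so the share among these genes is near the background. The call was lost without PTU+TH 1, at -0.42 with an adjusted p of 0.0568. In PTU mice the same gene had -0.30 ± 0.14 (-0.61 to 0.01; edgeR adjusted p = 0.191), and -0.43 with an adjusted p of 0.0185 when Y-linked counts entered the fit as a covariate. Within the libraries without Y-linked counts Slc3a2 averaged 130 CPM in PTU+TH (n = 2) against 182 CPM in Ctrl mice (n = 3). Within those with them it averaged 158 CPM in PTU+TH mice (n = 2). The Ctrl value there, 225 CPM, is from the single library Ctrl 2, the highest of the Ctrl libraries. Set and treatment cannot be told apart here, and the summed level of 10 parvalbumin neuron genes was 5850 to 6970 CPM in PTU+TH mice, 5570 to 7060 CPM in PTU mice and 7090 to 8840 CPM in Ctrl mice. Erbb4, a neuregulin receptor, averaged 2000 CPM in PTU+TH, 2240 CPM in PTU and 3390 CPM in Ctrl mice. Pvalb lay at 120 to 145 CPM in PTU+TH, 91.5 to 109 CPM in PTU and 110 to 136 CPM in Ctrl mice. The potassium channel gene Kcnc1 averaged 1410 CPM in PTU+TH, 1040 CPM in PTU and 1200 CPM in Ctrl mice. Pvalb and Kcnc1 thus had higher means in PTU+TH and lower means in PTU than in Ctrl mice. Cox6a2, also on the list, lies inside another gene and was at 0. The part of these genes in the difference was not tested.

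Dio2 was higher in every PTU library than in every Ctrl library, with a log2 fold change of 1.61 ± 0.76 (SE; 95% interval -0.05 to 3.28; edgeR adjusted p = 0.189), and was not called. Dio2 passed the filter on low counts here through the PTU libraries, with 18, 25 and 26 counts. The Ctrl libraries had 0, 25, 8 and 15, and Mut with Ctrl did not pass. Its fold change and lack of overlap are therefore given as description only. In this comparison 17.0% of 16496 genes were called and 26.0% had groups that do not overlap. Of the 6 genes tested 0 were called and 1, Dio2, did not overlap. At an unadjusted p under 0.05 edgeR had 0 of the 6, beside 28.8% of all genes, and DESeq2 had 2, Dio2 and Slc3a2, with 0 called. DESeq2 gave Dio2 an adjusted p of 0.157. PTU+TH against Ctrl gave Dio2 0.75 ± 0.77. Slc7a8 had 0.27 ± 0.12 in PTU+TH against Ctrl (edgeR adjusted p = 0.168), a fold of 1.20 (0.999 to 1.45) with groups that do not overlap. In that comparison 2 of the 6 genes, Slc3a2 and Slc7a8, had such groups, as 21.6% of all genes tested did. Slc7a8 in PTU against Ctrl had 0.05 ± 0.14 (-0.25 to 0.35). The comparisons with Ctrl share the Ctrl libraries, so their values are not independent of each other.

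Dio2 and Slco1c1 are known from glia and vessels, and the sorted nuclei were checked for those cells. In bulk nuclei, fewer cells of a type and less RNA per cell cannot be told apart. The summed level of 12 astrocyte markers was 390 to 474 CPM in PTU+TH, 393 to 467 CPM in PTU, 426 to 498 CPM in Mut and 431 to 504 CPM in Ctrl mice, most of it from Slc4a4, a bicarbonate carrier (337 CPM on average in PTU+TH and 302 CPM in PTU mice). Aqp4, the astrocyte water channel, averaged 1.42 CPM in PTU+TH and 1.3 CPM in PTU mice. Gfap was at 0 in all libraries, but it lies inside another gene and was not measured. The 10 endothelial markers summed to 20.4 to 35.5 CPM in PTU+TH, 27.4 to 35.2 CPM in PTU, 28.7 to 65.9 CPM in Mut and 29.2 to 42.9 CPM in Ctrl mice. None of them was at 0 in every library of a group, but Cldn5, Flt1 and Cdh5 reached 0 among PTU+TH libraries. Single markers differed in direction: S100b, a calcium-binding protein, had 12.6 to 13.7 CPM in PTU and 9.22 to 12.1 CPM in Ctrl mice, and Aldh1l1, a folate enzyme, 1.49 to 2.14 CPM in PTU and 0.982 to 1.22 CPM in Ctrl mice. Both were higher in every PTU than in every Ctrl library, as Dio2 was, while Slc4a4 averaged 302 CPM in PTU and 375 CPM in Ctrl mice. Aqp4, Slc1a2, Gja1 and Gjb6 also had lower means in PTU than in Ctrl mice. Slc1a3, Aldoc and Fgfr3 had higher means, and Sox9 had almost equal ones. Apart from S100b and Aldh1l1, the PTU and Ctrl ranges of all counted astrocyte markers overlapped. Of all genes tested in PTU against Ctrl, 26.0% had groups that do not overlap. The part of either cell type in the levels of Dio2 and Slco1c1 was not tested.

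Other genes of hormone handling showed no called change within the sets either. In both PTU+TH against PTU and Mut against Ctrl, 0 genes were called in each of 5 lists, where 0.281% and 0.348% of all genes were called, so a count of 0 in such short lists is near the background. Of 8 other hormone transporters 3 could be tested, and Slco3a1, an organic anion carrier, led them with 203 CPM in PTU+TH and 177 CPM in PTU mice (log2 fold change 0.23 ± 0.25, SE). Of 8 genes of hormone carriers and metabolism 1 could be tested, the sulfotransferase Sult1a1, with 1.28 CPM in PTU+TH and 1.29 CPM in PTU mice; Dio1, Alb and Serpina7 were at 0 in both. Of 9 genes for selenoprotein synthesis, on which all deiodinases depend, 7 were tested. Secisbp2l, which belongs to the family that binds the selenocysteine insertion element, had 0.01 ± 0.10 in PTU+TH against PTU and -0.01 ± 0.12 in Mut against Ctrl. All 9 genes that add or remove ubiquitin on type 2 deiodinase, or assist in it, were tested. Among them Wsb1, the substrate receptor of its ubiquitin ligase, averaged 693 CPM in PTU+TH and 870 CPM in PTU mice (-0.29 ± 0.17), and Usp33, a deubiquitinase, had 0.11 ± 0.10.

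The called changes in these lists all lay across the sets. Of 7 other light chains and large neutral amino acid carriers 6 were tested in each comparison, with 1 called in PTU against Ctrl and 2 in PTU+TH against Ctrl, beside 17.0% and 17.8% of all genes. Slc7a11, the cystine and glutamate exchanger xCT that pairs with the Slc3a2 product, averaged 1.13 ± 0.731 CPM in PTU+TH mice, 2.25 ± 1.0 CPM in PTU mice, 10.8 ± 1.34 CPM in Mut mice and 8.36 ± 1.08 CPM in Ctrl mice (SD, n = 4, 3, 4 and 4). It was lower in PTU mice by a log2 fold change of -1.94 ± 0.30 (SE; edgeR adjusted p = 0.000825) and in PTU+TH mice by -2.94 ± 0.36 (adjusted p = 6.32e-05), both against Ctrl and without overlap. Within the sets it had -0.96 ± 0.50 in PTU+TH against PTU and 0.36 ± 0.19 in Mut against Ctrl, neither called. Slc7a11 shares 2.53% of its interval with other genes, and the sets differ in the genes they list. Diet and set cannot be told apart in its differences from Ctrl.

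Slc43a2, the LAT4 carrier that works without a heavy chain, was higher in PTU+TH than in Ctrl mice by 0.36 ± 0.11 (SE; edgeR adjusted p = 0.0422), a call that held in 5 of 15 alternatives (adjusted p up to 0.0952). It had 0.30 ± 0.11 in PTU+TH against PTU (adjusted p = 0.519) and -0.51 ± 0.16 in Mut against Ctrl (adjusted p = 0.307), where the groups do not overlap. Slc7a6, the most counted light chain here, averaged 309 CPM in PTU+TH and 296 CPM in PTU mice, with 0.11 ± 0.13. In the ubiquitin list March6, a ligase known to act on type 2 deiodinase, was lower against Ctrl by -0.46 ± 0.12 in PTU mice (edgeR adjusted p = 0.0172) and by -0.37 ± 0.10 in PTU+TH mice (adjusted p = 0.0223). The call held in 10 of 13 alternatives for PTU mice (adjusted p up to 0.0686) and in 11 of 15 for PTU+TH mice (up to 0.0726). In this list of 8 tested genes March6 was the 1 called in each comparison, near the same background. It shares 7.82% of its interval with other genes, and the sets differ in the genes they list. The median of the light chain list was -0.13 in PTU against Ctrl and 0.00 in PTU+TH against Ctrl, beside -0.015 and -0.016 over all genes.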

How the data were processed

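Nuclear RNA of single cortices was amplified with SMART-Seq v4 and made into libraries with Nextera XT, per the labels' protocols. The authors deposited raw counts per gene, which the submitters' processing notes credit to Bowtie2 2.5.3 and HTSeq on mm10; the counting mode and annotation release are not stated there. Titles number the mice, which were read as replicates. Each comparison was fitted on its own libraries with edgeR 4.0.16 in R 4.3.3 (TMM scaling, filterByExpr at min.count 10, a robust quasi-likelihood fit, Benjamini-Hochberg adjusted p under 0.05), on all genes or, across sets, on the 46380 shared symbols. The code was tested on simulated data. CPM divides by the table total. Levels per kb use the GENCODE M21 gene interval in place of exon length, a change made after the zeros of nested genes were seen. DESeq2 1.42.0, scalings, filters, a Y-linked covariate, a replicate block and left-out libraries were alternatives. Named were all 8 genes, the called and the 2 most counted genes of each pathway list, and the 3 most alike genes. Genes and lists were chosen with earlier results of these data known.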

Additional observations from a re-analysis of the deposited data

Results flagged for a closer look

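Dixon's test at 95% was applied to 19 groups of 4 libraries, and chance alone flags about 1 in 20. It marked Mut 2 in both of 2 cases. Slco1c1 had 2.46 CPM there, with the other Mut libraries at 1.16, 1.29 and 1.27 CPM, and the gap took 0.899 of the group's range. Dio2 had 0.0 CPM there, with the others at 0.359, 0.368 and 0.422 CPM, a gap of 0.851 of the range. Mut 2 also had the lowest Slc16a10 level of all libraries (7.79 CPM) and the highest Slc3a2 level (259 CPM).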

How the results depend on the processing

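Depth limits Dio3 and, in Mut against Ctrl, Dio2, and the counting of nested genes limits Slc7a5; intervals for Slco1c1 and Crym stay wide. Of 319 values of these genes over alternatives, 295 kept direction and side of the threshold. Besides left-out libraries, members called moved in 3 settings: to 1 in PTU against Ctrl with a Y-linked covariate (Slc3a2, -0.43, adjusted p = 0.0185 by edgeR), to 2 in PTU+TH against Ctrl with no filter (Dio3, adjusted p = 0.0477, and Slc3a2), and to 0 there with the replicate block (Slc3a2, -0.44, adjusted p = 0.0513). The replicate numbers do not pair the samples (correlations of same-numbered deviations -0.21 to 0.20), and the block gave 82 called genes for Mut against Ctrl and 2424 for PTU+TH against Ctrl. Genes called in Mut against Ctrl went to 403 by DESeq2, 90 with a mean of at least 1 CPM, 196 in 1 fit of all 4 groups and 31 with the covariate. In PTU+TH against PTU they went to 203 by DESeq2 and 335 with the covariate. The cause was not tested. The covariate reversed Crym (-0.25), Slco3a1 (0.13), Secisbp2l (0.02) and March6 (-0.04) in Mut against Ctrl, Crym (0.01) and Secisbp2l (-0.00) in PTU+TH against PTU, and Slc16a10 (0.41), Crym (-0.51), Slco3a1 (0.19) and Slc3a1 (-0.08) in PTU against Ctrl; the block reversed Crym (0.01) in PTU+TH against Ctrl.

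With 1 library left out, called genes ranged over 11 to 103 (highest without Mut 2) in Mut against Ctrl, 5 to 29 in PTU+TH against PTU, 2061 to 4283 (highest without PTU 5) in PTU against Ctrl and 2380 to 3270 in PTU+TH against Ctrl, where members called ranged over 0 to 1. Ranges that cross 0 were, for Mut against Ctrl, Slco1c1 -0.49 to 0.09, Slco3a1 -0.14 to 0.08, Slc10a1 -0.37 to 0.03, Slc7a6 -0.14 to 0.05, Secisbp2l -0.11 to 0.04, Usp33 -0.11 to 0.01 and March6 -0.06 to 0.08. For PTU+TH against PTU they were Slc16a10 -0.03 to 0.69, Crym -0.92 to 0.58, Slc3a1 -0.23 to 0.01, Sult1a1 -0.36 to 0.81 and Secisbp2l -0.02 to 0.05. PTU against Ctrl had Slc16a10 -0.43 to 0.22, Slc7a8 -0.06 to 0.11, Crym -0.63 to 0.85, Slco3a1 -0.32 to 0.11, Slc10a1 -0.02 to 0.42, Slc7a6 -0.05 to 0.03 and Slc3a1 -0.08 to 0.18. PTU+TH against Ctrl had Slc16a10 -0.06 to 0.46, Crym -0.71 to 0.57, Slc3a1 -0.20 to 0.03 and Wsb1 -0.13 to 0.03.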
